A study of Mus musculus with 9 samples.

Results

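The genes described here are 9 mouse sialyltransferases: St3gal1, St3gal2, St3gal3, St3gal4, St3gal5, St3gal6, St6gal1, St6galnac4 and St6galnac6. They belong to the St3gal, St6gal and St6galnac families. The set makes up 9 of the 20 named sialyltransferases and 9 of the 19938 genes measured, and is not the whole of these families. St6gal2, St6galnac1, St6galnac2, St6galnac3 and St6galnac5 lie outside it. They were dimmer, with group means of at most 7.51 against at least 8.11 for the 9. The set was chosen by family name and by 1 measured pattern, the higher log2 level of St3gal4 in fibrillar collagen than in the other groups, so those values are given below as a description. For all 9 genes the comparisons of fibrillar collagen with the other matrices carry differences and standard errors and no p-value, and how many genes lay past the fit's threshold there is given once, as a description. The choice names no value of the comparison of non-fibrillar collagen with Matrigel, which is tested. That comparison shares its arrays with the others, so its p-values are not independent of the choice.

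Sialyltransferases are enzymes of the Golgi apparatus that move sialic acid, a negatively charged sugar, from its activated donor CMP-sialic acid onto the ends of glycan chains on proteins and lipids. The name of each enzyme gives the bond it makes: St3gal enzymes link sialic acid to the third carbon of galactose, St6gal enzymes to the sixth carbon of galactose, and St6galnac enzymes to the sixth carbon of N-acetylgalactosamine. The caps they build carry ligands for selectins and siglecs and can mask galactose from galectins. In mammary tumor cells, sialylation has been studied for its part in adhesion and spread.

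Cells of the mouse mammary tumor line D2.OR were kept in 3D culture, and their RNA was read on 9 arrays in 3 groups of 3: fibrillar collagen I, non-fibrillar collagen I, and Matrigel, a basement membrane extract. The cells carried no named mutation or drug treatment in any group, and all arrays share the same line, so the values speak for 1 line. The Matrigel group is known from its titles only, since its growth label reads as for the non-fibrillar arrays. No label ties an array to a culture of its own, so p-values reflect the spread between these arrays, which may be technical. Values are log2 expression after robust multi-array averaging (RMA), the authors' normalization, and 1 unit is a doubling. How bright a probe set is depends on its probes, so levels are set side by side between matrices for each gene, and between genes only to describe brightness.

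Array medians lay between 5.98 and 6.05 log2 units. The keratins Krt8 and Krt18, markers of simple epithelium, were at 12.6 to 13.3 in every group mean, the epithelial cadherin Cdh1 at 9.04 to 9.08, Krt7 at 9.47 to 10.67 and Cldn7 at 6.81 to 6.99. The epithelial markers Epcam, Cldn4 and Krt19 were low, at 5.32 to 6.21. Markers of macrophages, endothelial cells and lymphocytes had group means of 3.49 to 6.28. Among 8 fibroblast markers Pdgfra was at 10.91 in fibrillar collagen, 10.24 in non-fibrillar collagen and 11.25 in Matrigel, Col1a1 at 8.64 to 8.70, Col1a2 and Col3a1 at 6.22 to 6.28, Thy1 at 5.57 to 5.63, and Dcn, Lum and Fap at 3.24 to 4.45. On the linear scale the summed fibroblast list ran from 2453 to 2719 in fibrillar collagen, from 1729 to 2043 in non-fibrillar collagen and from 2853 to 3284 in Matrigel, and the summed epithelial list from 18960 to 20120, from 19550 to 20250 and from 16670 to 16870 in the same order. Between non-fibrillar collagen and Matrigel, where the sialyltransferases are tested, 4 of 8 epithelial markers were called higher, 1 of 8 fibroblast markers (Pdgfra) lower, 1 of 6 endothelial markers (Kdr) lower and 2 of 6 adipocyte markers (Fabp4 and Pparg) lower, and 0 of 8 macrophage and 0 of 6 lymphocyte markers were called by limma (1 and 0 at an unadjusted p under 0.05). Between the collagens 1 epithelial marker (Krt7, -0.30 ± 0.034, adjusted p = 0.00918) was lower in fibrillar collagen and 1 fibroblast marker (Pdgfra, 0.67 ± 0.095, adjusted p = 0.0153) higher. Between fibrillar collagen and Matrigel 2 epithelial markers (Krt7 and Krt18) were called higher and 1 adipocyte marker (Fabp4, -0.81 ± 0.083, adjusted p = 9.0e-04, limma) lower. These markers moved with the matrix, and their part in the results was not tested. A bulk array cannot tell a change in every cell from a change in the share of cells that carry an RNA.

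The set of RefSeq promoters used here (GRCm38.p6) held a transcription start for 7 of the 9 genes. St3gal1 and St3gal2 were missing from that set, and their starts were not looked up elsewhere. The 250 bases before the start are shown for 3 genes: St3gal4, because it stood highest in fibrillar collagen, St6galnac4, because it stood lowest in non-fibrillar collagen, and St6gal1 at the first of its 3 listed starts, for contrast, as another gene with its lowest level in non-fibrillar collagen. Capitals mark GC boxes, the letters GGGCGG or their reverse complement CCGCCC, which are binding sites known for the Sp family of transcription factors.
St3gal4, chr9:35116865-35117114, minus strand: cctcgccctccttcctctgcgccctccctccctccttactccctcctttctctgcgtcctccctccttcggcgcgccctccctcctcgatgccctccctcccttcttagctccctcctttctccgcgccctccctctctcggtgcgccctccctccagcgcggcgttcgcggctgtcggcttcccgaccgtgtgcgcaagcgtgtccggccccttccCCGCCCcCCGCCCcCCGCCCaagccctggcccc
St6galnac4, chr2:32586828-32587077, plus strand: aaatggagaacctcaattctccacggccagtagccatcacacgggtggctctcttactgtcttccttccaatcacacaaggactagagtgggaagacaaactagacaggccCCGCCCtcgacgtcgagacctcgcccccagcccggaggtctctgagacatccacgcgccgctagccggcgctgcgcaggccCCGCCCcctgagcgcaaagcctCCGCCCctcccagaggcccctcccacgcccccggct
St6gal1, chr16:23224490-23224739, plus strand: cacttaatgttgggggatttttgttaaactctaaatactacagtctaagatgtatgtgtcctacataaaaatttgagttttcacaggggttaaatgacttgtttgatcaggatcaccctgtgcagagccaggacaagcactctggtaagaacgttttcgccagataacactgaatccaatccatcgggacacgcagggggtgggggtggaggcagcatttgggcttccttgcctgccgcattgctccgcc
St3gal4 held 3 GC boxes in a row, each 1 base from the next, and had a GC content of 72.8% with 25 CpG pairs. St6galnac4 held 3 spread-out GC boxes, with a GC content of 65.2% and 19 CpG pairs. The St6gal1 window held 0 GC boxes and had a GC content of 47.2% with 6 CpG pairs. Over all 32851 listed promoters the median GC content was 52.4% with 6 CpG pairs, 32.7% held a GC box and 12.4% held the TATA box letters TATAAA on either strand. St3gal3 and St3gal5 held 2 GC boxes each, and St3gal6 held 4 at the second of its 2 listed starts and 0 at the first. Thus 5 of the 7 genes had the letters at some start. The 7 genes have 10 listed promoters, so this count per gene cannot be set against the share per promoter. St6galnac6 had 0 GC boxes, and TATAAA was in 0 of the 7 genes. These are matches of letters and say nothing on binding in these cells.

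St3gal4 caps N-glycans and other chains that end in galactose joined to N-acetylglucosamine, and is one of the enzymes that make sialyl Lewis x, the glycan bound by selectins. Its log2 levels were 8.86, 8.90 and 8.86 in fibrillar collagen, 8.40, 8.44 and 8.50 in non-fibrillar collagen and 8.24, 8.44 and 8.41 in Matrigel. The 3 fibrillar arrays lay above all 6 others, and the non-fibrillar and Matrigel arrays overlapped. Its mean in fibrillar collagen was 0.43 ± 0.039 log2 units (limma SE, n = 3 each) above non-fibrillar collagen, or 1.34-fold, and 0.51 ± 0.056 above Matrigel, or 1.43-fold. Between arrays of the same number the fibrillar excess over non-fibrillar collagen was 0.46, 0.46 and 0.36. The remaining step, which the choice does not name, was small: non-fibrillar collagen stood 0.086 ± 0.056 above Matrigel (95% interval -0.040 to 0.21, adjusted p = 0.403, limma). Matrigel array 1 was the lowest of the 9, and without it that step was 0.024 and the fibrillar excess over Matrigel 0.45.

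The other enzymes of the same acceptors, St3gal3 and St3gal6, did not share that order. St3gal3, which sialylates both common galactose endings of N-glycans, ran from 8.59 to 8.73 in fibrillar collagen, from 8.67 to 8.82 in non-fibrillar collagen and from 8.79 to 8.92 in Matrigel. Its fibrillar mean was 0.073 ± 0.057 below non-fibrillar collagen and 0.16 ± 0.059 below Matrigel, with the fibrillar arrays under all Matrigel arrays. St3gal6, which like St3gal4 can make selectin ligands, had levels of 10.57, 10.54 and 10.47 in fibrillar collagen, 10.70, 10.70 and 10.54 in non-fibrillar collagen and 10.54, 10.41 and 10.39 in Matrigel. It was highest in non-fibrillar collagen, but the fibrillar arrays overlapped both other groups. The lowest non-fibrillar and the highest Matrigel array had the same value, 10.54. Non-fibrillar collagen exceeded Matrigel by 0.20 ± 0.060 (95% interval 0.063 to 0.33), which missed the threshold (adjusted p = 0.0579, limma) and passed in a fit blocked on the replicate number (adjusted p = 0.0178, limma).

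**Figure D1:**
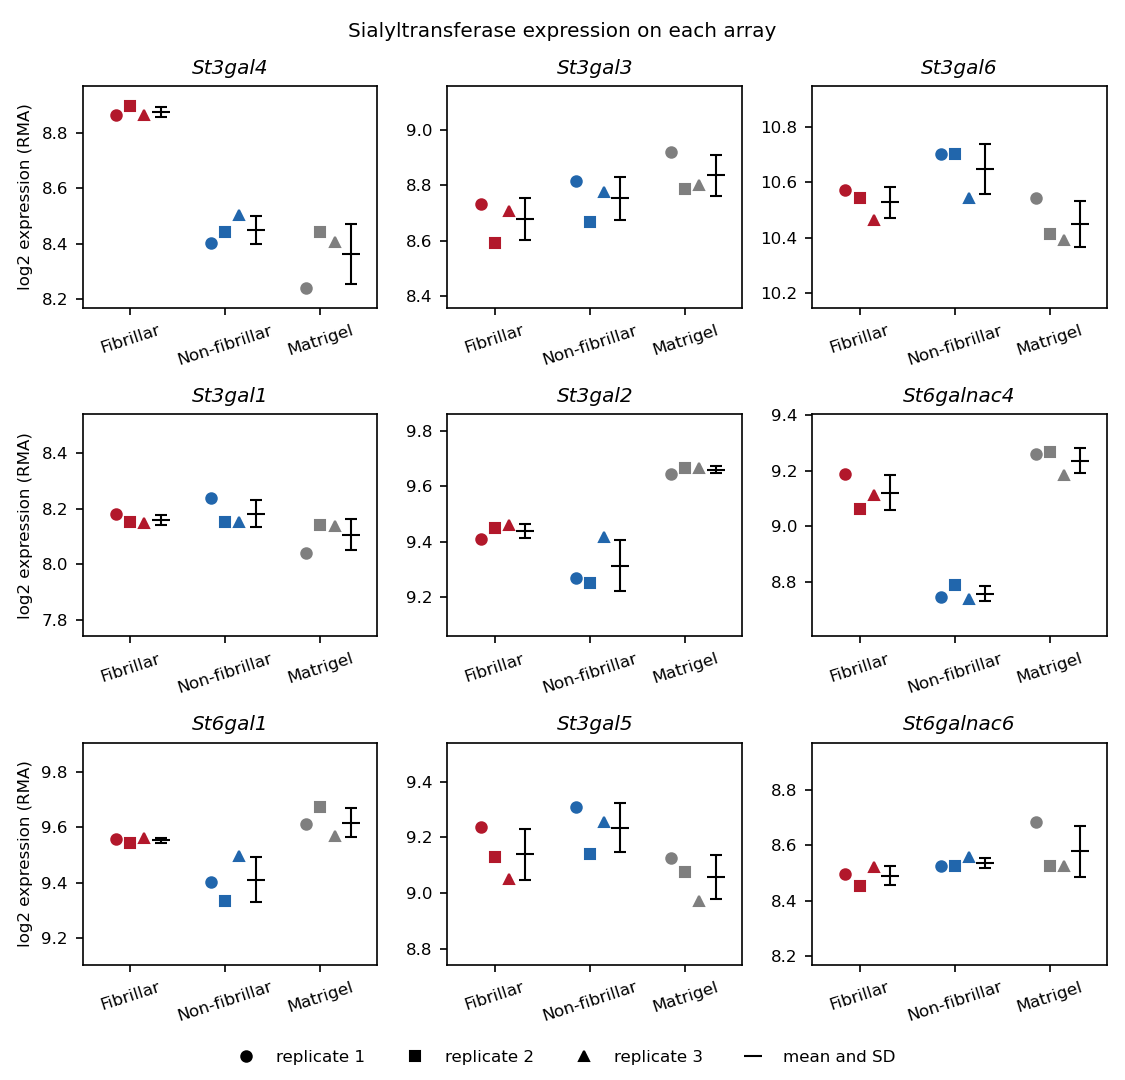
Log2 expression (RMA, vertical axes, each spanning 0.8 units) of the 9 sialyltransferases on each array, by matrix. Symbols give the replicate number and bars the mean ± SD of 3 arrays. The fibrillar arrays of St3gal4, at 8.86 to 8.90, lie above all others, and the non-fibrillar arrays of St6galnac4, at 8.74 to 8.79, lie below all others.

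The enzymes of O-glycans include St6galnac4, St3gal2 and St3gal1. St6galnac4 adds a further sialic acid to the already sialylated short O-glycan, which ends the chain. Its levels were 9.19, 9.06 and 9.11 in fibrillar collagen, 8.74, 8.79 and 8.74 in non-fibrillar collagen and 9.26, 9.27 and 9.18 in Matrigel. The non-fibrillar arrays lay below all 6 others, and the fibrillar and Matrigel arrays overlapped. In non-fibrillar collagen it fell 1.39-fold below Matrigel (log2 -0.48 ± 0.046, adjusted p = 1.7e-04, limma). Its fibrillar mean was 0.36 ± 0.044 above non-fibrillar collagen, or 1.29-fold, and 0.12 ± 0.046 below Matrigel.

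St3gal2, which sialylates the same short O-glycan and also gangliosides, had levels of 9.41, 9.45 and 9.46 in fibrillar collagen, 9.27, 9.25 and 9.42 in non-fibrillar collagen and 9.64, 9.67 and 9.67 in Matrigel. The Matrigel arrays stood above all collagen arrays, while the collagen groups overlapped through non-fibrillar array 3. In non-fibrillar collagen it fell 1.27-fold below Matrigel (log2 -0.35 ± 0.049, adjusted p = 0.00152, limma). Its fibrillar mean was 0.22 ± 0.049 below Matrigel and 0.13 ± 0.053 above non-fibrillar collagen. St3gal1, the other main enzyme for this acceptor, was nearly flat, with a group mean of 8.16 in fibrillar, 8.18 in non-fibrillar collagen and 8.11 in Matrigel. Its step between non-fibrillar collagen and Matrigel was 0.075 ± 0.044 (95% interval -0.024 to 0.17, adjusted p = 0.344, limma). A second, dimmer St3gal1 probe set had means of 6.45, 6.48 and 6.47 in the same order.

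St6gal1 makes the bond to the sixth carbon of galactose on N-glycans and is the member most studied in tumor cells, where its targets include integrin beta chains and death receptors. It had levels of 9.56, 9.54 and 9.56 in fibrillar collagen, 9.40, 9.34 and 9.50 in non-fibrillar collagen and 9.61, 9.67 and 9.57 in Matrigel. The 3 groups did not overlap, with non-fibrillar collagen lowest and Matrigel highest, although the top fibrillar and bottom Matrigel arrays nearly touched. In non-fibrillar collagen it fell 1.15-fold below Matrigel (log2 -0.21 ± 0.049, adjusted p = 0.0211, limma). That call was lost without non-fibrillar array 1 or 2 or Matrigel array 2, on the 6 arrays of the comparison alone, and after centring on array medians (adjusted p = 0.0558 to 0.0822). Its fibrillar mean was 0.14 ± 0.048 above non-fibrillar collagen and 0.064 ± 0.049 below Matrigel.

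St3gal5 and St6galnac6, which like St3gal2 act in the making of gangliosides, did not pass between non-fibrillar collagen and Matrigel. St3gal5, the GM3 synthase that opens the ganglioside pathway, had group means of 9.14 in fibrillar collagen, 9.24 in non-fibrillar collagen and 9.06 in Matrigel, with SDs of 0.093, 0.088 and 0.079. Its non-fibrillar arrays, from 9.14 to 9.31, lay just above its Matrigel arrays, from 8.97 to 9.13, and the difference of 0.18 ± 0.065 did not pass (95% interval 0.031 to 0.32, adjusted p = 0.114, limma). St6galnac6, which acts on gangliosides and on Lewis-type chains, had a mean of 8.49 in fibrillar, 8.54 in non-fibrillar collagen and 8.58 in Matrigel. Its non-fibrillar to Matrigel difference was -0.043 ± 0.051 (95% interval -0.16 to 0.070, adjusted p = 0.678, limma), and was 0.011 without Matrigel array 1. St6galnac6 is the neighbour of St6galnac4 on the same chromosome in the RefSeq table, with 0 genes between them, and it did not show the low non-fibrillar level of St6galnac4; the difference between these genes was not tested. Identical values on 4 arrays for St6galnac6 and on 3 for St3gal6 came with the deposited table, where 37.8% of genes had a value shared by 3 or more arrays.

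**Figure D2:**
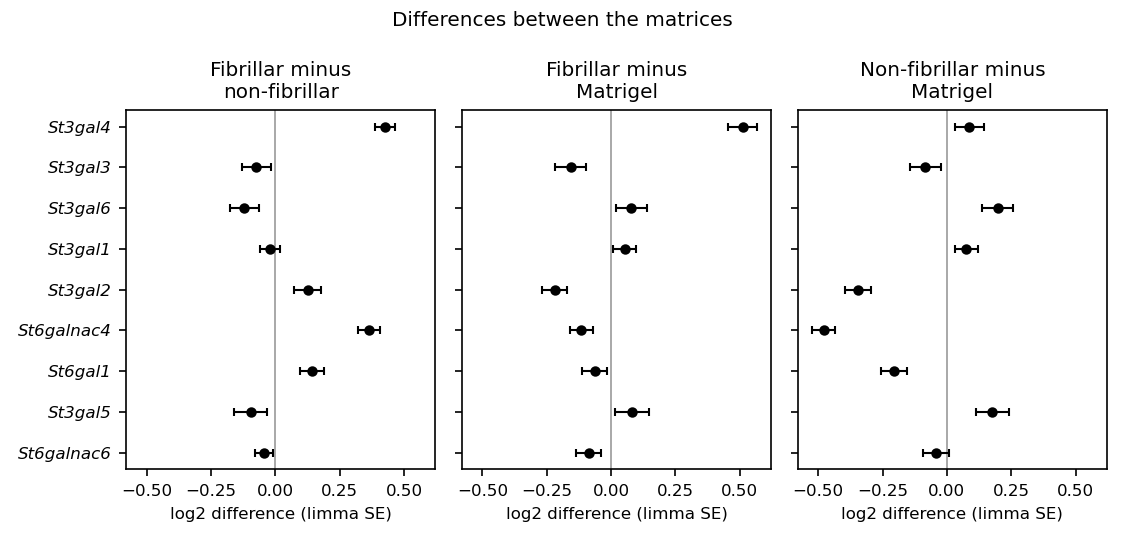
Log2 differences (horizontal axes) of the 9 sialyltransferases for each pair of matrices, with bars of 1 limma SE. St3gal4 lies at 0.43 and 0.51 in the fibrillar comparisons and at 0.086 between non-fibrillar collagen and Matrigel, where St6galnac4 (-0.48), St3gal2 (-0.35) and St6gal1 (-0.21) are farthest to the left.

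Across the 9 genes the group mean was highest in fibrillar collagen for 1 gene, in non-fibrillar collagen for 3 and in Matrigel for 5. Between non-fibrillar collagen and Matrigel 3 of the 9 passed, all lower (St3gal2, St6gal1 and St6galnac4), where 7.07% of all genes were called lower, 6.75% higher and 13.8% in either direction. The median difference over the 9 was -0.043, against 0.0006 over all genes, and the median size 0.18 against 0.071. In that comparison the groups did not overlap for 5 of the 9, against 28.4% of all genes. These backgrounds include dim genes, while the 9 had group means of 8.11 to 10.65, above the median gene mean of 6.44. Of the 2755 genes called, 2529 were brighter than that median and still passed without the dim genes. The share called among the brighter genes was thus higher than 13.8%, so 3 of 9 is not read as an excess. The contrasts with fibrillar collagen entered the choice of the genes, and the place of St3gal4 in them was fixed by it, so nothing is read from the counts that follow. Between fibrillar and non-fibrillar collagen 2 of 9 lay past the threshold, St3gal4 and St6galnac4, both higher, where 2.71% of genes were called higher, 3.69% lower and 6.4% in either direction. The groups did not overlap for 4 of the 9, against 25.2% of all genes. St6galnac4 was no longer past the threshold without fibrillar array 3 or non-fibrillar array 1 or 2, with differences of 0.37, 0.36 and 0.38 against 0.36 with all arrays. Between fibrillar collagen and Matrigel 1 lay past it higher and 1 lower, St3gal4 and St3gal2, where 1.45% of genes were called higher, 2.37% lower and 3.82% in either direction. The groups did not overlap for 6 of the 9, against 20.4% of all genes. St3gal2 was no longer past the threshold after another quantile normalization, after centring, and without any fibrillar or Matrigel array or non-fibrillar array 1, with differences of -0.23 to -0.20 throughout. The comparisons share arrays, so a gene's differences are not independent of each other.

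The pattern of St3gal4 over the 9 arrays was most like that of Mfge8 (Pearson's r = 0.970), a milk fat globule protein, then Fosl1 (0.966), a subunit of the AP-1 transcription factor, the membrane protein Myof (0.963), Otud6a (0.962) and the T-box factor Tbx4 (0.960). Mfge8 had mean levels of 10.97 in fibrillar collagen, 10.75 in non-fibrillar collagen and 10.67 in Matrigel. The most opposed genes were Stx8 (-0.984), a syntaxin of endosomes, Mlf2 (-0.977) and the protease inhibitor Slpi (-0.975), the last with means of 7.69, 8.13 and 8.28 in the same order. Among the members r with St3gal4 ran from -0.751 for St3gal3 to 0.321 for St3gal1. The arrays share 3 groups, so these are descriptions of likeness over 9 points.

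The 11 remaining sialyltransferases were St6gal2, St6galnac1, St6galnac2, St6galnac3, St6galnac5 and the enzymes St8sia1 to St8sia6. The group means of 10 of them were at 4.02 to 5.18, below the array medians, and those of St6galnac2 at 7.44 to 7.51. With limma 0 of the 11 passed in each of the 3 comparisons, and 0 had an unadjusted p under 0.05. No detection calls were used, so the signal of the 10 dim genes may be near background. A change in them could be missed. The smallest adjusted p was 0.265 for St8sia3 between fibrillar and non-fibrillar collagen (0.13 ± 0.061), 0.382 for the same gene between fibrillar collagen and Matrigel and 0.323 for St6galnac1 between non-fibrillar collagen and Matrigel. Their median differences were -0.0050, 0.053 and 0.027 in the order of those comparisons.

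Of 7 genes for the synthesis and transport of sialic acid, 2 fell in fibrillar against non-fibrillar collagen and 0 rose. Nans, which makes the phosphorylated precursor of sialic acid, fell 1.26-fold (log2 -0.34 ± 0.052, adjusted p = 0.0193, limma), and Cmas, which makes the donor CMP-sialic acid, fell 1.25-fold (-0.32 ± 0.065, adjusted p = 0.0389, limma). Nans was at 8.81, 8.70 and 8.64 in fibrillar collagen against 9.04, 9.08 and 9.04 in non-fibrillar collagen. Its Matrigel arrays, at 8.79, 8.66 and 8.78, lay among the fibrillar ones. In non-fibrillar collagen against Matrigel both rose, Nans by 0.31 ± 0.054 (adjusted p = 0.00444) and Cmas by 0.31 ± 0.073 (adjusted p = 0.0197), and Renbp, a renin-binding epimerase of N-acetylglucosamine, fell by 0.33 ± 0.074 (adjusted p = 0.0160, limma). Between fibrillar collagen and Matrigel 0 of the 7 passed with limma and 0 had an unadjusted p under 0.05, the smallest adjusted p being 0.290 for Gne, the rate-limiting enzyme of the pathway, at -0.098 ± 0.045.

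Of 9 genes that remove, recycle or modify sialic acid, 2 rose in fibrillar against non-fibrillar collagen: Ctsa, which protects the lysosomal sialidase (0.26 ± 0.042, adjusted p = 0.0219), and Slc17a5, the lysosomal exporter of sialic acid (0.30 ± 0.062, adjusted p = 0.0411, limma). Neu1, that lysosomal sialidase, was at 7.81, 7.76 and 7.81 in fibrillar collagen, 7.69, 7.68 and 7.75 in non-fibrillar collagen and 8.01, 8.04 and 7.99 in Matrigel. It fell in both collagens against Matrigel, by 0.22 ± 0.040 in fibrillar (adjusted p = 0.0176) and by 0.30 ± 0.040 in non-fibrillar collagen (adjusted p = 9.2e-04, limma). Neu2, a cytosolic sialidase, rose in both, by 0.34 ± 0.070 in fibrillar (adjusted p = 0.0280) and by 0.30 ± 0.070 in non-fibrillar collagen (adjusted p = 0.0188, limma). Its group means were low, at 5.92 in fibrillar collagen, 5.88 in non-fibrillar collagen and 5.58 in Matrigel. All lay under the array medians, and no detection calls were used, so its signal may be near background. Ctsa fell by 0.34 ± 0.047 in non-fibrillar collagen against Matrigel (adjusted p = 0.00124).

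Genes that build the acceptor chains included several with the order of St6galnac4, lowest in non-fibrillar collagen. Of 9 genes for trimming and branching of N-glycans, 3 rose and 1 fell in fibrillar against non-fibrillar collagen, with a list median of 0.13 against 0.0080 over all genes. Mgat5 and Mgat4b, which start branches, rose by 0.31 ± 0.038 and 0.36 ± 0.052 (adjusted p = 0.0108 and 0.0164), and the mannosidase Man2a1 by 0.34 ± 0.044 (adjusted p = 0.0120, limma). Mgat2, another branching enzyme, fell by 0.19 ± 0.033 (adjusted p = 0.0286, limma), and missed the threshold in the fit blocked on the replicate number (adjusted p = 0.0543). In non-fibrillar collagen against Matrigel 4 of the 9 fell and 1 rose: Mgat5 fell by 0.53 ± 0.040 (adjusted p = 4.6e-05), Mgat4b by 0.55 ± 0.065 and Man2a1 by 0.40 ± 0.057, Mgat2 rose by 0.27 ± 0.039, and Mgat4a, named after its value was seen, fell by 0.48 ± 0.122 (adjusted p = 0.0290, limma). Mgat5 was also 0.22 ± 0.040 lower in fibrillar collagen than in Matrigel (adjusted p = 0.0171), as 1 of 9.

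Of 12 measured galactosyltransferases that make acceptor ends (of 13 listed), B4galt5, a lactosylceramide synthase, was the 1 that rose in fibrillar against non-fibrillar collagen (0.44 ± 0.063, 1.36-fold, adjusted p = 0.0159). In non-fibrillar collagen against Matrigel B4galt5 fell by 0.62 ± 0.065 (adjusted p = 3.1e-04) and B4galt1, a main enzyme of N-acetyllactosamine chains, by 0.30 ± 0.053 (adjusted p = 0.00473, limma). Between fibrillar collagen and Matrigel 0 of the 12 passed with limma, where 4 had an unadjusted p under 0.05 and B4galt1 was at -0.19 ± 0.053 (adjusted p = 0.0835). B4galt5 also stood in a list of 8 measured genes (of 9 listed) for making and breaking down gangliosides and related glycolipids. Of these, 4 rose in fibrillar against non-fibrillar collagen and 4 fell in non-fibrillar collagen against Matrigel. The others were the lysosomal genes Gla (0.34 ± 0.054 and -0.76 ± 0.056 in those comparisons), Hexa (0.26 ± 0.056 and -0.57 ± 0.054) and the activator Gm2a (0.23 ± 0.043 and -0.47 ± 0.042), so the genes that passed in this list degrade glycolipids, B4galt5 apart. Their adjusted p was 0.0200 to 0.0459 between the collagens and 3.8e-05 to 1.7e-04 between non-fibrillar collagen and Matrigel (limma). All 3 also fell in fibrillar collagen against Matrigel, by 0.41 ± 0.056, 0.30 ± 0.054 and 0.24 ± 0.042, as 3 of 8 (adjusted p = 0.00421 to 0.0149, limma).

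Of 15 genes that start or branch O-glycans 0 passed with limma in fibrillar against non-fibrillar collagen and 0 against Matrigel (4 and 2 at an unadjusted p under 0.05). Against Matrigel Galnt2, which starts O-glycans, was at -0.21 ± 0.051 (adjusted p = 0.0573). In non-fibrillar collagen against Matrigel Galnt2 (-0.36 ± 0.051, adjusted p = 0.00140) and Galnt7 (-0.22 ± 0.058, adjusted p = 0.0326) fell. Of 9 measured fucosyltransferases (of 10 listed) Fut8, which adds the core fucose of N-glycans, rose in non-fibrillar collagen against Matrigel (0.28 ± 0.049, adjusted p = 0.00396), while limma called 0 in fibrillar against non-fibrillar collagen and 0 against Matrigel (2 and 3 at an unadjusted p under 0.05). Of 10 carrier proteins that bear sialic acid, Ncam1, the carrier of polysialic acid, fell in fibrillar collagen against Matrigel by 0.62 ± 0.042 (adjusted p = 1.7e-04) and in non-fibrillar collagen by 0.76 ± 0.042 (adjusted p = 9.3e-06). Egfr rose in fibrillar against non-fibrillar collagen (0.21 ± 0.038, adjusted p = 0.0319, and 0.0633 in the blocked fit) and fell in non-fibrillar collagen against Matrigel (-0.20 ± 0.047, adjusted p = 0.0184). Of 14 measured lectins that bind sialic acid or galactose (of 16 listed) the galectin Lgals8 fell in non-fibrillar collagen against Matrigel (-0.14 ± 0.036, adjusted p = 0.0334, limma). In fibrillar collagen limma called 0 of them against non-fibrillar collagen and 0 against Matrigel (1 and 4 at an unadjusted p under 0.05).

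**Figure D3:**
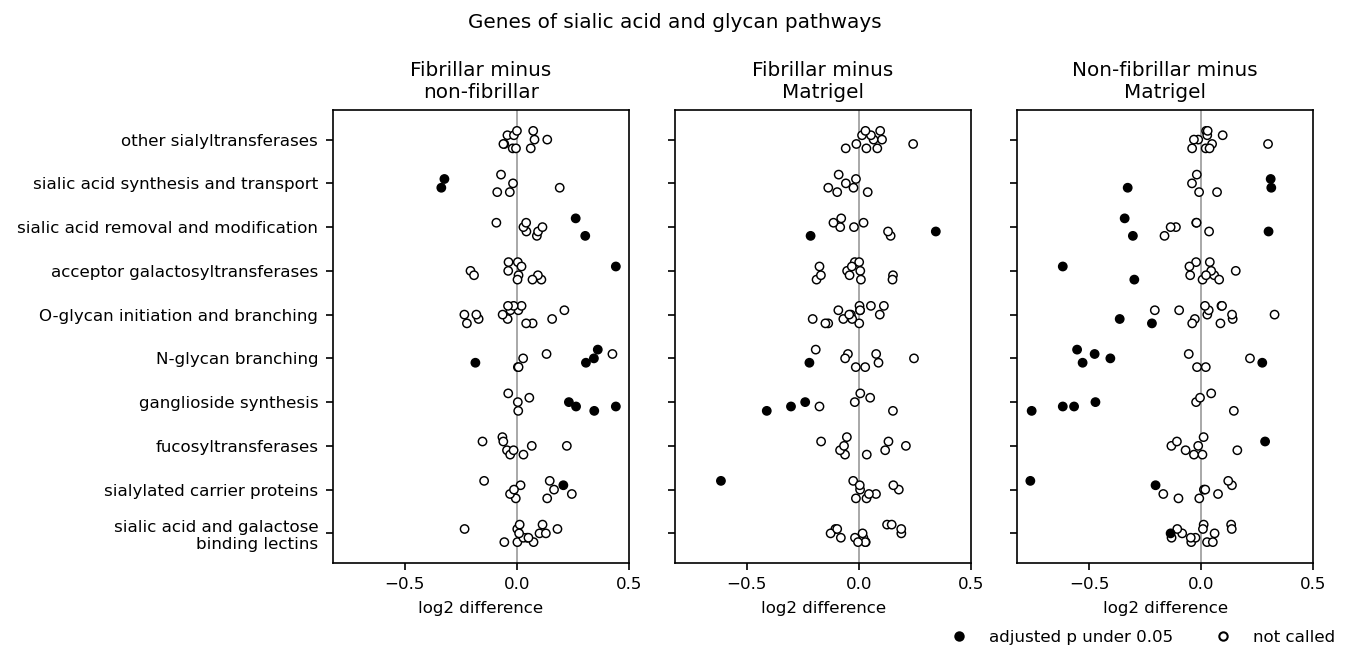
Log2 differences (horizontal axes) of single genes in 10 lists around sialic acid and glycan synthesis, for each pair of matrices. Filled points had an adjusted p under 0.05 in the limma fit over 19938 genes. None of the 11 other sialyltransferases is filled, and in the N-glycan branching list 3 genes lie right and 1 left of 0 among the filled points for fibrillar minus non-fibrillar collagen.

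Many of these calls between the collagens were lost when 1 of the 6 arrays was left out, which also cut the calls over all genes to between 150 and 569, against 1277. The differences themselves moved little: those of the 13 list genes called there stayed at 84.1% to 119% of the value with all arrays. In these refits Slc17a5, Mgat2, Hexa and Gm2a lost the call each time, and Gm2a also missed it in the blocked fit (adjusted p = 0.0555). Nans, Cmas and Egfr kept it without fibrillar array 1 and lost it without any other, and Ctsa, Mgat4b and Gla kept it without non-fibrillar array 3 and lost it without any other. B4galt5 and Man2a1 kept it without either of these arrays and lost it otherwise, and Mgat5 lost it without fibrillar array 2 or 3 or non-fibrillar array 2. Adjusted p over those refits and the other alternatives reached at most 0.142. Against Matrigel, in fibrillar collagen Gla and Ncam1 kept the call in all 9 refits. There Neu1 lost it without fibrillar or Matrigel array 2, Hexa without these or fibrillar array 1, Gm2a without fibrillar array 1 or Matrigel array 2, Mgat5 without fibrillar array 1 or 2 or Matrigel array 2 or 3, and Neu2 without fibrillar array 1 or 2 or any Matrigel array. In non-fibrillar collagen against Matrigel Nans, Neu1, Ctsa, B4galt1, B4galt5, Galnt2, Mgat2, Mgat4b, Mgat5, Man2a1, Gla, Hexa, Gm2a, Fut8 and Ncam1 kept the call in all 9 refits, as did St3gal2 and St6galnac4. Cmas lost it without non-fibrillar array 1 or 2 or Matrigel array 2 or 3, Renbp without non-fibrillar array 1 or 2 or Matrigel array 2, and Neu2 without non-fibrillar or Matrigel array 2 or 3. Galnt7 lost it without non-fibrillar array 1 or 3 or Matrigel array 1 or 2, and Mgat4a without non-fibrillar array 1 or 3 or Matrigel array 2 or 3. Egfr lost it without non-fibrillar array 2 or 3 or Matrigel array 3, and Lgals8 without any non-fibrillar array or Matrigel array 2 or 3.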

How the data were processed

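Gene expression was measured on 9 Affymetrix arrays of D2.OR cells, 3 per matrix, grouped by sample title. Values were deposited as log2 intensities summarised per probe set; the submitters' processing notes name Affymetrix Power Tools and RMA. Their versions, settings and genome build were not given in the sources used here. RMA pulls arrays towards one distribution, which can hide a shift shared by most genes. Precision is limited by the number of arrays, and no detection calls were used. No 2 arrays were duplicates (smallest mean absolute difference 0.127 log2 units).

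Of 35512 probe sets, 21789 had 1 gene symbol in the platform annotation, 1621 had several and 12102 none listed. Entrez identifiers of 21698 matched RefSeq. The probe set with the highest mean was kept for each of 19938 genes, without filter or rescaling. Differences were fitted with limma 3.58.1 in R 4.3.3, with two-sided p-values adjusted by Benjamini and Hochberg's method over 19938 genes, at a threshold of 0.05. The collagen comparison used its 6 arrays and the Matrigel comparisons all 9. The fits were tested on simulated data.

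The members, gene lists and the rule for named genes were chosen with earlier results of these data known. The rule took every member, up to 4 called genes with the smallest p per list and comparison, the gene with the smallest p where none was called, and the genes most and least correlated with St3gal4. Same-numbered collagen arrays deviated together from their group means (r = 0.221, 0.143 and 0.242 across genes), so the numbers may pair them, a pairing that comes from the data. The corresponding values were 0.253, 0.103 and 0.097 for fibrillar collagen and Matrigel and 0.125, 0.045 and 0.135 for non-fibrillar collagen and Matrigel. The main fits did not use the pairing. It entered only as the replicate block among the alternatives, which kept 970 of the 1277 calls between the collagens. The alternatives changed which arrays entered the fit, or used a replicate block, quantile normalization again, median centring, averaged probe sets, a filter on dim genes, a trended robust prior and leaving out each array. Promoters were taken from RefSeq. Protein sequences were not used here.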

Additional observations from a re-analysis of the deposited data

How the results depend on the processing

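The fibrillar excess of St3gal4 was 0.40 to 0.44 over non-fibrillar collagen and 0.51 to 0.55 over Matrigel under the alternatives that kept all arrays, and 0.40 to 0.45 and 0.45 to 0.55 without 1 array. Its step between non-fibrillar collagen and Matrigel was 0.024 to 0.13 without 1 array and passed under no alternative run. Over all members, 99 of 99 alternative values of the collagen comparison and 125 of 126 of the fibrillar to Matrigel comparison moved by less than the spread between replicates. Some of these values could not move, so the counts overstate the stability. A replicate block or other arrays in the fit leave a difference of group means unchanged, as does leaving out an array of the third group. Averaging probe sets changed St3gal1 alone. Between non-fibrillar collagen and Matrigel 132 of 144 kept their side of the threshold, 5 lost it (St6gal1), 6 gained it (St3gal6) and 1 changed sign (St6galnac6, -0.043 with all arrays, -0.0698 to 0.0108 when 1 array was left out, the positive value without Matrigel replicate 1). Counts of called genes depended more on the processing. Without dim genes there were 2211 calls between the collagens against 1277, and 1264 between fibrillar collagen and Matrigel against 762, fewer genes being tested. On its own 6 arrays the comparison of fibrillar collagen with Matrigel gave 460. Leaving out 1 array gave 150 to 569, 353 to 718 and 1814 to 2637 calls in the 3 comparisons, against 1277, 762 and 2755. With replicate number as a block there were 1285, 1020 and 3244 calls. Between the collagens 541 genes were higher and 736 lower, against 640 and 612 after quantile normalization again and 421 and 968 after centring. Between fibrillar collagen and Matrigel 289 were higher and 473 lower, against 373 and 366 after quantile normalization, and between non-fibrillar collagen and Matrigel 1345 and 1410, against 1841 and 1092 after centring. Other causes were not tested. Of calls given above, besides those of St3gal6, Mgat2, Gm2a and Egfr, the block changed no call of a gene named above other than Galnt2, which passed between fibrillar collagen and Matrigel (adjusted p = 0.0326), Slc17a5, which passed between non-fibrillar collagen and Matrigel (adjusted p = 0.0378), Mgat4a, which passed between the collagens (adjusted p = 0.0272), and the markers Pdgfra and Pparg, which passed between fibrillar collagen and Matrigel (adjusted p = 0.0383 and 0.0487), and Kdr, which passed between the collagens (adjusted p = 0.0258).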
